A study of Mus musculus with 4 samples.

Results

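The urea cycle enzymes and the mitochondrial ornithine carrier were examined in livers of vitamin C-treated and untreated Wrn mutant mice. The members were Cps1, Otc, Ass1, Asl, Arg1, Nags and Slc25a15, and a member was measured where a probe's RefSeq accession matched its symbol. Of the 7 members, 5 were measured, by 6 of 41174 probes: Otc by 2 probes and Ass1, Asl, Arg1 and Nags by 1 probe each. Cps1 and Slc25a15 matched 0 probes and were not analysed here. The treated group was made up of 4 male C57Bl/6 mice, 3 months old, whose Wrn protein (a helicase of the RecQ family) is mutant, given 0.4% vitamin C in the drinking water from weaning onwards. The untreated group was made up of 4 male C57Bl/6 mice of the same age that carry the same mutant protein and drank water with no vitamin C added. Both groups thus carry the mutation, the allele is not named in the labels, and no wild-type liver was included. Each of the 4 arrays held RNA of 1 treated liver in Cy3 and of 1 untreated liver in Cy5, and the labels call the 4 pairs biological replicates.

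The urea cycle turns ammonia, which is toxic to the brain, into urea, and hepatocytes are the cells that run the whole cycle. Nags makes N-acetylglutamate, the activator that carbamoyl phosphate synthetase (Cps1) needs, and Otc joins carbamoyl phosphate with ornithine in the mitochondrion. Ass1 and Asl then build and split argininosuccinate in the cytosol, Arg1 releases urea and ornithine from arginine, and Slc25a15 carries ornithine back into the mitochondrion. The enzymes are most abundant in hepatocytes around the portal vein, whereas hepatocytes around the central vein catch the remaining ammonia by making glutamine. Mice make their own ascorbate in the liver, so the treatment adds to a supply that is already there.

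The promoters of 3 measured members are shown because measured members of 1 pathway lie behind unlike start regions and their ratios are given one by one further on. The table of RefSeq promoters (build GRCm38.p6) held 4 of the 7 members, and the 3 shown are those that were also measured. Each sequence below is the 250 bases before the annotated start, on the + strand, and capitals mark matches to the letters AAAGTNCA (of the type bound by HNF4) or GGGCGG (the GC box), searched on both strands.
Otc, chrX:10252055-10252304: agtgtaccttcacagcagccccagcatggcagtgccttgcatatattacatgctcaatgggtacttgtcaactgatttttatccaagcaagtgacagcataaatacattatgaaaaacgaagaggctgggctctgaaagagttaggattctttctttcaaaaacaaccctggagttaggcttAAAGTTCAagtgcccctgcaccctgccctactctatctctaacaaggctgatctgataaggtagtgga
Ass1, chr2:31470020-31470269: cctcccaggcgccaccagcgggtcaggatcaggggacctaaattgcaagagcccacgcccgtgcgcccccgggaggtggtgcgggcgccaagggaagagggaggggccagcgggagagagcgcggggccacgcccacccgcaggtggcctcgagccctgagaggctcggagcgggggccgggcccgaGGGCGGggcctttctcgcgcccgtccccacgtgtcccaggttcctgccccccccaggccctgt
Nags, chr11:102145263-102145512: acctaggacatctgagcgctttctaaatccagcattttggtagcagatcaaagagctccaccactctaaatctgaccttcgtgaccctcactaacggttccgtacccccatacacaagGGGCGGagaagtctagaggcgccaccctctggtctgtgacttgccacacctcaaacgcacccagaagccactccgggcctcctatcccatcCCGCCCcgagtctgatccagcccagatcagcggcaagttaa

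Of these windows, that of Otc had a G and C content of 43.6%, that of Ass1 75.6% and that of Nags 55.6%, against a median of 52.4% over the promoters of the table. The HNF4-type match of Otc begins 68 bases before the start, and 3.53% of all 32851 promoters hold such a match within their 250 bases. The GC box of Ass1 begins 63 bases before the start, and Nags holds 2, at 132 and 41 bases before it, the second on the - strand. A GC box was found in 32.7% of all promoters. No match to TATAAA (12.4% of all promoters) or to TTGCNNAA, of the type bound by C/EBP (9.56%), was found in any of the 3 windows. These matches describe letters and show no binding.

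Values are log2 ratios of Cy3 over Cy5, that is, by the dyes given in the labels, of the vitamin C-treated over the untreated liver, after background correction and loess within each array. The deposited log2 table runs the other way: over 39333 probes its columns correlated with these ratios at r = -0.982 to -0.992, a correlation over probes that are no independent replicates. If the dyes were the other way round from the labels, every higher and lower given here would turn. The dyes ran the same way on all 4 arrays, and 0 were swapped, so a dye effect of a probe and an effect of the treatment cannot be told apart. Median spot signals were 380 to 530 in Cy3 and 813 to 962 in Cy5, against 62 to 67 and 66 to 80 on negative control spots, and 0 spots were saturated. All 4 arrays lay on 1 slide. Tested were the 39333 probes that, on 3 arrays or more, were well above background in either channel, all 6 member probes among them. The number of arrays limits the precision, and an exact two-sided sign-flip test of 1 value over 4 arrays cannot go below p = 0.13. The p-values below therefore come from limma's model across all probes, adjusted by the Benjamini-Hochberg method.

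No member passed the test. Asl was higher in treated livers on all 4 arrays, Arg1 was lower on all 4, and Ass1 was lower on 3 and higher on 1. Nags and the brighter Otc probe lay on both sides of 0. The dimmer Otc probe was lower on all 4 arrays (unadjusted p = 0.0119, adjusted p = 0.142, limma). Over all probes, 0 of 39333 had an adjusted p under 0.05 (limma, 0%), while 10696 (27.2%) had an unadjusted p under 0.05. Of the 5 members, 1 (Asl) was past that unadjusted threshold, against 29.5% of 17086 genes with a symbol, counted by the probe of highest mean intensity. The members' share is not above that background. The median of the 5 mean log2 ratios was -0.07, against 0.0066 over the 17086 genes, and 4 of 5 means lay below 0, against 48.2% of genes. The 691 other probes with a log2 intensity of 15.5 or more, the range of all measured members but Nags, had a median of -0.06. Set against the other probes within 0.5 of its own log2 intensity, the mean of 4 of the 5 members lay below their median. With arrays centred on their median and no loess, Ass1 (-0.62), Arg1 (-0.37) and the brighter Otc probe (-0.25) passed (adjusted p = 0.0348, 0.0228 and 0.0427, limma), as did the dimmer Otc probe (-0.47, adjusted p = 0.0234), in a fit in which 11897 probes (30.2%) passed and the 691 probes with a log2 intensity of 15.5 or more had a median of -0.28.

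**Figure D1:**
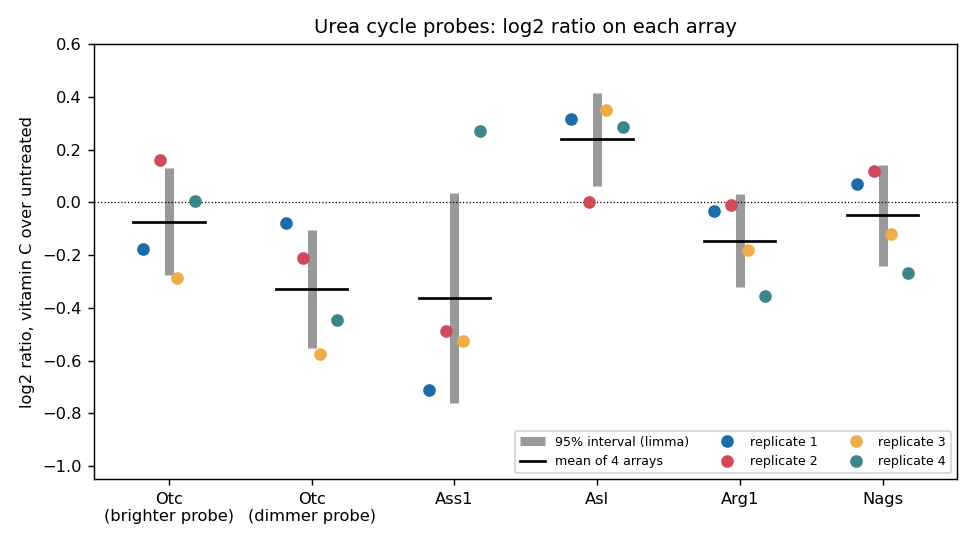
Log2 ratio of vitamin C over untreated on each of the 4 arrays (coloured points, 1 per replicate) for the 6 urea cycle probes, with the mean (black line) and limma's 95% interval (grey bar). The 4 Asl points lie at or above 0, from 0.0017 to 0.35, and the Ass1 point of replicate 4 stands at 0.27 while the other Ass1 points lie at -0.49 or below.

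Nags, the enzyme that makes the activator of carbamoyl phosphate synthetase, had log2 ratios of 0.07, 0.12, -0.12 and -0.27 on replicates 1 to 4. The normalized log2 signals were 12.36, 12.31, 12.06 and 12.10 in treated livers, against 12.29, 12.19, 12.18 and 12.36 in untreated livers. Replicates 1 and 2 had the higher signal in the treated liver and replicates 3 and 4 in the untreated one, and the groups overlapped. The mean was -0.05 ± 0.18 (SD, n = 4; 95% interval -0.24 to 0.14; adjusted p = 0.694, limma). The interval leaves room for a difference of up to 0.24 on the log2 scale in the lower direction. Without replicate 4 the mean was 0.023, on the other side of 0.

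Otc, the mitochondrial enzyme that makes citrulline, was measured by 2 probes of the same transcript accession, which are given apart. The brighter probe had log2 ratios of -0.18, 0.16, -0.28 and 0.0055 on replicates 1 to 4, with treated signals of 15.36 to 15.57 and untreated signals of 15.41 to 15.65 on the normalized log2 scale. Its mean was -0.07 ± 0.20 (SD, n = 4; adjusted p = 0.577, limma), with 2 arrays on each side of 0. The 509 other probes within 0.5 of its log2 intensity had a median of 0.04, and the 10th percentile of their means was -0.20. Leaving out replicate 1 gave a mean of -0.04, leaving out replicate 2 one of -0.15, and leaving out replicate 3 one of -0.0035. The dimmer probe was below 0 on all 4 arrays, at -0.08, -0.21, -0.57 and -0.45. Its treated signals were 14.69, 14.44, 14.17 and 14.20, against 14.77, 14.65, 14.74 and 14.64 in the untreated livers. The untreated values lay within a narrow band, 3 of 4 treated values lay below all of them, and only the treated liver of replicate 1 reached into the band.

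The dimmer Otc probe averaged -0.33 ± 0.22 (SD, n = 4), a fold of 0.797, and did not pass (unadjusted p = 0.0119, adjusted p = 0.142, limma), other than with arrays centred without loess. It was the lowest mean ratio among members relative to probes of like intensity: 809 other probes within 0.5 of its log2 intensity had a median of 0.05, and the 10th percentile of their means was -0.21. The difference between the probes, dimmer minus brighter, was -0.25 ± 0.24 over the 4 arrays and below 0 on 3 of them. The exact sign-flip test gave a two-sided p of 0.25, and with 4 arrays it cannot reach 0.05. The scanner software marks bright spots whose value was scaled up from a scan at lower gain. Both channels of the brighter probe were marked so on all 4 arrays. For the dimmer probe the untreated channel was marked on all 4 arrays and the treated channel on replicate 1 alone, the array with the ratio nearest to 0. The mark follows the signal itself, and its part in the ratio was not tested.

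Ass1, which joins citrulline with aspartate, had the widest spread between arrays of the members. Its log2 ratios were -0.71, -0.49, -0.52 and 0.27 on replicates 1 to 4. The treated livers had normalized log2 signals of 16.88, 17.07, 16.99 and 17.78, against 17.59, 17.55, 17.51 and 17.51 in the untreated livers. The treated livers of replicates 1 to 3 lay below every untreated liver and that of replicate 4 lay above every one. The SD was 0.41 among treated livers and 0.036 among untreated livers (n = 4 each).

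The mean Ass1 ratio was -0.36 ± 0.43 (SD, n = 4), a fold of 0.778, with a 95% interval of -0.76 to 0.04 (adjusted p = 0.206, limma). Without replicate 4 the mean was -0.57, and it still did not pass (adjusted p = 0.363, limma). The smallest adjusted p of any probe in that fit was also 0.363, and 0 of 39333 probes passed. Ass1 lies in the range of intensity where most probes had ratios below 0: 190 other probes of like intensity had a median of -0.22, and 87.9% of them lay below 0. The Ass1 ratio shrank to -0.09 (adjusted p = 0.754) once each array's running median along intensity had been subtracted, and to -0.15 (adjusted p = 0.627) with Agilent's processed signals.

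**Figure D2:**
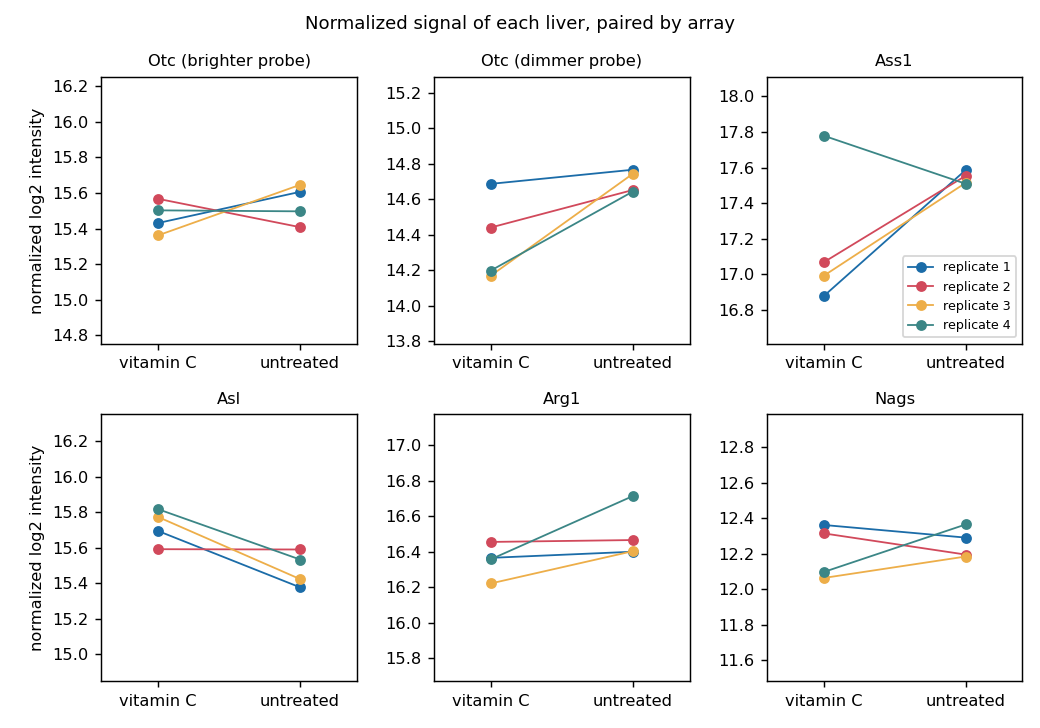
Normalized log2 intensity of each liver for the 6 urea cycle probes, treated livers on the left and untreated livers on the right of each panel, with a line joining the livers of 1 array. The Ass1 panel shows untreated values between 17.51 and 17.59 and treated values from 16.88 to 17.78, and the Asl panel shows treated values of 15.59 or more.

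Asl, which splits argininosuccinate into arginine and fumarate, was the 1 measured member with ratios above 0 on all 4 arrays. The ratios were 0.32, 0.0017, 0.35 and 0.28 on replicates 1 to 4, so replicate 2 was near 0. Its treated signals were 15.70, 15.59, 15.77 and 15.82 on the normalized log2 scale, against 15.38, 15.59, 15.42 and 15.53 in untreated livers. The lowest treated value, 15.593, was barely above the highest untreated value, 15.591, and both are livers of the same array. How many of all probes have groups that do not overlap was not counted. Among the 17086 genes with a symbol, 18.4% had ratios above 0 on all 4 arrays.

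The mean Asl ratio was 0.24 ± 0.16 (SD, n = 4), a fold of 1.18, with a 95% interval of 0.06 to 0.41. It did not pass over all probes (unadjusted p = 0.0167, adjusted p = 0.145, limma). Past the unadjusted threshold in this direction were 15% of genes with a symbol and 11.7% of all probes. Without replicate 2 the mean was 0.32 with an adjusted p of 0.0141, a fit in which 9689 probes (24.6%) passed. The 484 other probes of like intensity had a median of 0.04 and a 90th percentile of 0.20, just under the Asl mean. The ratio was 0.21 with Agilent's processed signals and 0.21 with that running median subtracted, and 0.05 where the arrays were centred on the median with no loess. In that fit without loess, probes of like intensity to Asl had a median of -0.16.

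Arg1, the arginase of hepatocytes, had ratios below 0 on all 4 arrays, at -0.03, -0.01, -0.18 and -0.36 on replicates 1 to 4. The treated signals were 16.36, 16.45, 16.22 and 16.36, against 16.40, 16.47, 16.40 and 16.71 in untreated livers. On replicates 1 and 2 the livers of a pair were nearly level, the largest gap was on replicate 4, where the untreated liver had the highest signal, and the groups overlapped. The mean was -0.15 ± 0.16 (SD, n = 4), a fold of 0.904 (95% interval -0.32 to 0.03; adjusted p = 0.236, limma). Ratios below 0 on all 4 arrays were found for 13.7% of genes with a symbol. The 324 other probes of like intensity had a median of -0.04, and the Arg1 ratio was -0.06 with Agilent's processed signals and -0.08 without replicate 4.

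**Figure D3:**
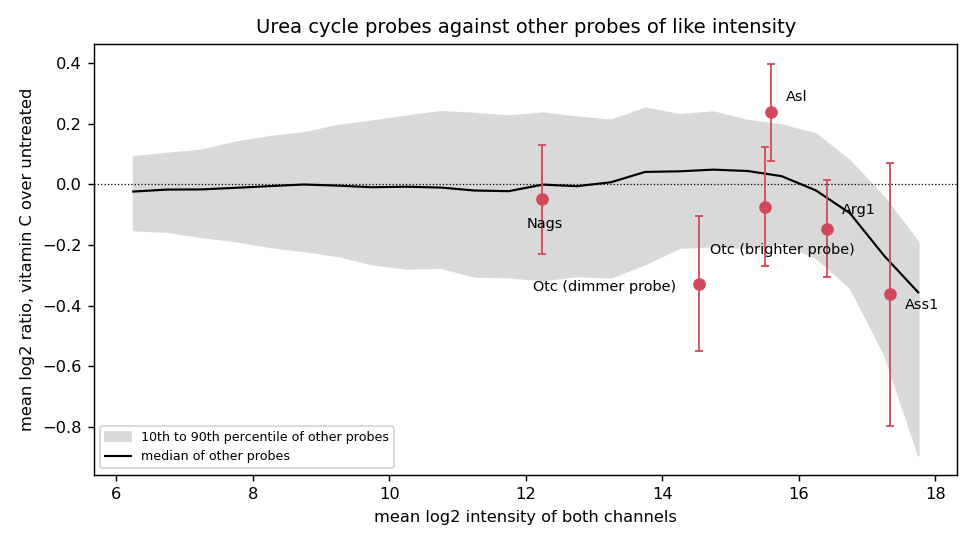
Mean log2 ratio of vitamin C over untreated against mean log2 intensity for the 6 urea cycle probes (points, with SD over 4 arrays) and for all other tested probes in bins of 0.5 log2 units (line, median; grey band, 10th to 90th percentile). The line bends below 0 above a log2 intensity of about 16, where Arg1 and Ass1 lie, and the dimmer Otc probe lies below the band and Asl just above it.

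The members' ratios were also set against each other within each array, and no pair passed. Ass1 and Asl, the pair that makes arginine from citrulline, had the widest difference: Ass1 minus Asl was -1.03, -0.49, -0.87 and -0.01 on replicates 1 to 4, with a mean of -0.60 ± 0.45. Asl minus Arg1 was above 0 on all 4 arrays, at 0.38 ± 0.27, and Arg1 minus Nags was below 0 on all 4, at -0.10 ± 0.03. Each of these 3 differences had the smallest p that the exact sign-flip test allows (two-sided p = 0.13), and adjusted over the 10 pairs of members compared it was 0.417. On replicates 1 to 4, 2, 3, 1 and 3 of the 5 members lay above 0.

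The genes with a ratio pattern most like a member's were found by the root mean square difference over the 4 arrays among 17073 genes. They were Samd3 for Otc (a difference of 0.029 in log2 ratio), Kdm6a, a histone demethylase, for Asl (0.015) and the growth factor gene Fgf2 for Arg1 (0.028). The Fgf2 probe was dim, with a mean log2 intensity of 6.99, and its ratio was 0.20 without loess, on the other side of 0 from Arg1. For Ass1 the nearest was B4galt1, a galactosyltransferase, at 0.19, much farther off than for Otc, Asl and Arg1. Among the members themselves, Arg1 and Nags were nearest to each other (0.099), and 560 genes lay nearer to Arg1 than Nags did.

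The genes that deliver ammonia and glutamine to the cycle or compete with it gave mixed values. Of 11 measured genes of ammonia and glutamine handling, 9 had a mean below 0 and 2 above, and 0 passed. At an unadjusted p under 0.05, 2 were lower and 1 was higher, against 14.5% and 15% of genes with a symbol. Glul, the glutamine synthetase of central-vein hepatocytes, had ratios of -0.54, -0.32, -0.14 and -0.37 on replicates 1 to 4, with a mean of -0.34 ± 0.16 (SD, n = 4; adjusted p = 0.139, limma). Slc38a2, a carrier of small neutral amino acids such as glutamine, was above 0 on all 4 arrays, at 0.38 ± 0.19. Some further genes of these lists are named for their known role, and were picked after their values were seen. Among them, Gls2, the glutaminase of liver, which frees ammonia beside Cps1, had -0.23, -0.23, -0.22 and 0.50, so replicate 4 alone lay above 0, as for Ass1. Glud1, which releases ammonia from glutamate, was at -0.06 ± 0.11.

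Aspartate brings the further nitrogen that Ass1 uses, and the fumarate released by Asl returns to it through malate and oxaloacetate. Of 12 measured genes of this shuttle, 9 had a mean above 0 and 3 below, with a list median of 0.13, against 0.0066 over all genes with a symbol. None passed, and at an unadjusted p under 0.05 there were 2 lower and 2 higher, against 14.5% and 15% of genes with a symbol. The malate dehydrogenase genes were the lower ones: Mdh2, of mitochondria, had -0.37, -0.30, -0.31 and -0.31, with a mean of -0.32 ± 0.03, and Mdh1, of the cytosol, had -0.28 ± 0.16. Slc25a11, the carrier that exchanges oxoglutarate for malate, was above 0 on all 4 arrays at 0.32 ± 0.13. The aspartate carrier gene Slc25a13, known as citrin, was at 0.11 ± 0.14, the aspartate aminotransferase gene Got2 at 0.14 ± 0.15 and Got1 at 0.40 ± 0.71. Got1 ranged from -0.45 on replicate 2 to 1.29 on replicate 4. The list's median was -0.04 where arrays were centred without loess.

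Ornithine and arginine also feed polyamines, creatine, proline and nitric oxide. Of 18 measured genes of these paths, 10 had a mean above 0 and 8 below, the median was 0.02, and 1 was lower and 2 higher at an unadjusted p under 0.05, shares not above those of all genes (14.5% and 15%). Agmat, which encodes agmatinase, was above 0 on all 4 arrays at 0.25 ± 0.08, as was Sms, the spermine synthase gene, at 0.39 ± 0.18. Slc7a1, a carrier of cationic amino acids, was at -0.22 ± 0.15. Oat, the ornithine aminotransferase of central-vein hepatocytes, was at -0.03 ± 0.42, with -0.65 on replicate 2. Arg2, the arginase of other tissues, was at 0.01 ± 0.10, by a dim probe with a mean log2 intensity of 6.69.

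Enzymes that break down amino acids had a median of 0.03 over 28 measured genes, with 16 means above 0 and 12 below, and with 4 lower and 2 higher at an unadjusted p under 0.05, again not above the 14.5% and 15% of all genes. Aass, of lysine breakdown (-0.34 ± 0.17), and Gnmt, a glycine methyltransferase (-0.31 ± 0.19), were below 0 on all 4 arrays. Gnmt lies in the range of intensity where the median of like probes was -0.35, and Aass lies where it was 0.03. Of 16 measured regulators of urea cycle genes, 0 were lower and 1 was higher at the unadjusted threshold (14.5% and 15% of all genes), with a median of 0.0092. Foxo1, a factor of the fasting response, was at 0.23 ± 0.21, the sirtuin gene Sirt5, whose product acts on Cps1, at 0.20 ± 0.21 and Cebpa, a factor needed for urea cycle gene expression in mouse liver, at 0.16 ± 0.17. Hnf4a was at 0.08 ± 0.19. None of the genes named from these lists passed: the smallest adjusted p over all probes was 0.139 (limma).

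Ass1 was set beside genes known for the portal and the central-vein side of the liver lobule. Without the members, the 9 measured portal genes had medians of -0.21, -0.15, -0.14 and 0.48 on replicates 1 to 4, and 2, 3, 4 and 7 of them lay above 0. The 15 measured central-vein genes had medians of 0.04, -0.09, -0.03 and -0.45, and 9, 5, 6 and 4 of them lay above 0. Replicate 4 was thus the array on which portal genes were mostly above 0 and central-vein genes mostly below, and the array on which Ass1 was at 0.27. On that array the portal gene Sds, a serine dehydratase, was at 1.06, Hal, the histidase gene, at 0.48 and Etnppl, a phospholyase gene, at 1.45, while the central-vein cytochromes Cyp2e1 and Cyp1a2 were at -0.90 and -0.70. The urea cycle members did not all follow: Arg1 had its lowest ratio on replicate 4, and Asl was as high on replicates 1 and 3. Over the 4 arrays the smallest p-values were those of Cyp2f2 (-0.57 ± 0.32) and Etnppl (0.54 ± 0.61) on the portal side, besides Asl. Cyp2f2 was at -0.27 (adjusted p = 0.207, limma) with the running median subtracted, and passed without loess (-0.83, adjusted p = 0.0182) and without replicate 2 (-0.70, adjusted p = 0.0121). Etnppl was at 0.24 without replicate 4. On the central-vein side Gulo, of ascorbate synthesis, was at -0.29 ± 0.15 and Cyp27a1, of bile acid synthesis, at -0.24 ± 0.18, beside Glul. This reading of the arrays was chosen after the values were seen.

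Hepatocyte markers were measured in these samples, 11 of 11 well above background in both channels on all 4 arrays. Their median ratio was -0.41, with 7 of 11 below 0 on all 4 arrays, against 13.7% of all genes. Their median log2 intensity was 17.1, and probes of like intensity had a median of -0.19. The markers' median was -0.10 with each array's running median subtracted, -0.25 with Agilent's processed signals and -0.66 without loess. Kupffer cell markers had array medians of -0.35, 0.28, 0.05 and 0.41 over 7 genes and endothelial markers 0.05, -0.17, 0.11 and 0.14 over 6. The medians over all 4 arrays were -0.05 for 7 T and NK cell markers, 0.0090 for 6 stellate cell markers, -0.06 for 5 bile duct markers, 0.04 for 3 red cell markers and 0.01 for 5 markers of kidney and gut epithelium. All 5 of the last were also well above background in both channels on all 4 arrays, so this mark alone does not show expression of a gene. Among red cell markers the hemoglobin gene Hba-a1 had 0.33, -1.54, -1.52 and -0.24. The part of these values in the urea cycle ratios was not tested. In whole liver, fewer cells of a type and less RNA per cell cannot be told apart.

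**Figure D4:**
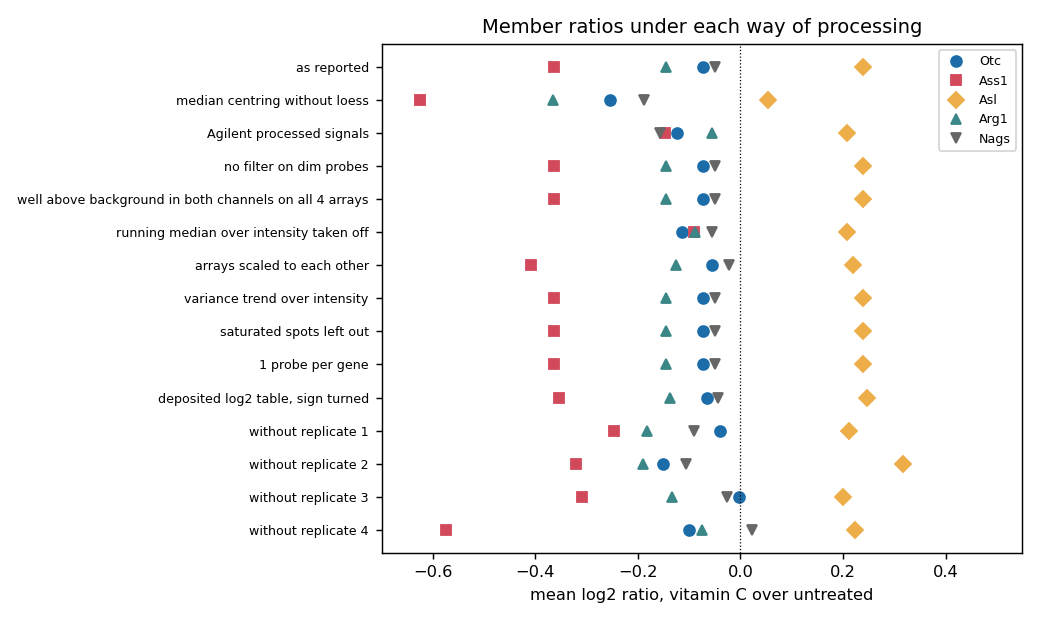
Mean log2 ratio of vitamin C over untreated for the 5 measured urea cycle genes (symbols) under the reported processing (top row) and 14 alternatives (rows below). Asl stays to the right of 0 and Ass1, Arg1 and Otc to the left in every row, while Ass1 runs from -0.62 to -0.09 and Nags crosses 0 without replicate 4. The rows for the filters, the variance model, saturated spots and the probe choice hold the same values as the top row.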

How the data were processed

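Liver RNA of 4 vitamin C-treated mice (Cy3) and 4 untreated mice (Cy5), all Wrn mutant, was hybridised in pairs to 4 Agilent mouse arrays. Per the file headers, spot and local background intensity were read with Feature Extraction 10.5.1.1, which also gives processed signals and their log10 ratio. The deposited log2 table was made by the authors with limma per the submitters' processing notes (version and steps not given in the sources used here). Its scale is log2 and each column's median is 0.0014 to 0.0050, but its values run opposite to the ratio of Cy3 over Cy5, so it was used with the sign turned and only as an alternative.

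Median spot intensities were background-corrected by normexp (offset 50), control spots had weight 0 in the loess fit within each array, outlier spots were left out, and spots of a probe were averaged (R 4.3.3, limma 3.58.1). The signals given for each liver came from the same loess fit, followed by quantile normalization of the mean intensity between arrays, with outlier spots kept. Probes well above background in either channel on 3 arrays were kept. The mean of the 4 log2 ratios was tested against 0 with lmFit and eBayes, p-values were adjusted by Benjamini and Hochberg's method over the 39333 probes, and the procedure was tested on simulated data. Single differences used an exact sign-flip test. Probes were named through the RefSeq accession, which gave 25097 of 41174 probes a symbol, and where a gene had several probes, the brightest on average stood for it. The mean of both channels' log2 intensity gave the probes of like intensity, within 0.5.

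Named were all members with all their probes, for each list the 3 genes of smallest p, and for each member the gene nearest in ratio. Some genes that this rule picks are not reported here. Other genes were named after their values were seen. The members, lists and tests were chosen with earlier results of these data known. The alternatives covered normalization, the signal used, the filter on dim probes, scaling, the variance model, the probe choice, the deposited table and leaving out each array. P-values measure the spread between these 4 pairs only.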

Additional observations from a re-analysis of the deposited data

Results flagged for a closer look

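The ratio of Etnppl, a portal gene that encodes a phospholyase of ethanolamine metabolism, was 1.45 on replicate 4, while the other 3 arrays lay between 0.13 and 0.31. The gap is 0.866 of the range of the 4 values, beyond Dixon's critical value for 4 samples. Of 39 such groups of 4 values examined, the 5 measured urea cycle genes among them, 1 was beyond it (2.56%), against about 5% by chance. The Ass1 value of replicate 4 was within it.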

How the results depend on the processing

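Asl stayed above 0 and Ass1, Arg1 and both Otc probes below 0 under all 14 alternatives run (13 for the dimmer Otc probe). The other filters on dim probes, the variance model and 1 probe per gene reuse the reported ratios. A member's sign could not move there, nor with saturated spots left out. Centring each array on its median without loess gave 11897 probes past the adjusted threshold and 18193 past the unadjusted one (limma), Arg1 at -0.37, Otc at -0.25, Ass1 at -0.62, a member median of -0.25 and Fgf2 at 0.20, the other side of 0. Probes of like intensity then had medians of -0.26, -0.14 and -0.49 for Arg1, Otc and Ass1. Gnmt turned to 0.16 with each array's running median along intensity subtracted. Without replicate 4, Nags was at 0.023, above 0, unlike with all 4 arrays. Over the fits that each leave out 1 array, the count of probes past the adjusted threshold ran from 0 to 9689 and past the unadjusted one from 4025 to 16353, both highest without replicate 2. In these fits Asl ran from 0.20 to 0.32, Nags from -0.11 to 0.023, Otc from -0.15 to -0.0035, Arg1 from -0.19 to -0.076 and Ass1 from -0.57 to -0.25. Where the fit has fewer arrays its degrees of freedom fall, and otherwise the cause was not tested. No further paired fit was run because each array already pairs 1 treated with 1 untreated liver. The pairing lies in the ratio itself, and the test of the ratios against 0 is a paired one. A block for slide or scan date was not run, since all 4 arrays share them, and leaving out saturated spots left every value as it was, since there were 0. With 4 arrays and no dye swap, the 95% intervals of Nags, Arg1, Ass1 and the brighter Otc probe all include 0.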
